A study of Oryza sativa with 12 samples.

Results

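Rice genes that act at the start of tetrapyrrole synthesis, together with *GUN4* and the gene for phytol supply, were followed over all the embryo libraries of the study. These are *HEMA1* (Os10g0502400), *GSA* (Os08g0532200), *ALAD* (Os06g0704600), *GUN4* (Os11g0267000) and *CHLP* (Os02g0744900), which are 5 of the 38978 genes in the count table. They were chosen by gene ID for their place in the pathway and not by a measured value, but with earlier results of these data known. The names belong to the IDs as the genes were chosen, since the gene table used here does not pair these IDs with symbols. Polyadenylated RNA was sequenced from embryos of wild type Nipponbare (NIP) and of *Oslec1-1*, named Oslec1 in the sample labels, a CRISPR/Cas9 line in the Nipponbare background with a frameshift in *OsLEC1*, a seed maturation regulator of the NF-YB family. The study dealt with greening of the mutant embryos, and the comparison asks how genes of pigment synthesis were expressed in them. Embryos of both genotypes were taken at 7 days after pollination (DAP), the early stage (EE), and at 25 DAP, the late stage (LE), with 3 biological replicates in each of the 4 groups, and only this 1 mutant line was sequenced. Embryos were collected together for the RNA, so a replicate is not a single embryo.

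Plants make all tetrapyrroles, among them chlorophyll and heme, from glutamate bound to its tRNA. *HEMA1* encodes glutamyl-tRNA reductase, the first enzyme of this route and the main point of its control, and *GSA* encodes glutamate-1-semialdehyde aminotransferase, which forms 5-aminolevulinic acid. *ALAD* encodes the dehydratase that joins 5-aminolevulinic acid into porphobilinogen, the first ring. GUN4 binds porphyrins and stimulates magnesium chelatase, the enzyme at the fork between chlorophyll and heme, and is known in *Arabidopsis* from plastid-to-nucleus signalling. CHLP, geranylgeranyl reductase, makes the phytyl tail of chlorophyll and of tocopherol.

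Library totals lay between 16113922 and 27213238 counts, and 32693 genes had a count in at least 1 library. The counts are given here as CPM, counts scaled to a common library total, with TMM (trimmed mean of M-values, which sets the bulk of genes equal between libraries). The TMM factors were 0.685 to 0.745 in the wild type at EE and 1.04 to 1.18 in the other 9 libraries, so the choice of scaling matters wherever the wild type at EE is compared. Scaled by library size only, the median log2 fold change of all genes moved by 0.68 at EE between the genotypes, by 0.57 between the stages of the wild type, by 0.10 between the genotypes at LE and by 0.01 between the stages of *Oslec1-1*. The 2 stages carry different library codes, and what the codes stand for is not given in the sources used here, so stage and code cannot be told apart, whereas the genotypes were compared within a stage. *OsLEC1* was not analysed as a gene of its own, because no annotation used here pairs it with an ID. Its small frameshift would also not be read from RNA counts. An ID taken for it from general knowledge was in a marker list described below.

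On the IRGSP-1.0 genome, *GSA* spans chr8:26531415-26534074 on the minus strand and *ALAD* chr6:29757543-29761819 on the minus strand, and no other listed gene overlaps either of them. *HEMA1* spans chr10:19159179-19162398 on the minus strand. Within it lies Os10g0502450 on the plus strand, at chr10:19159304-19162190, which covers 89.7% of the *HEMA1* span and leaves 333 bases outside. *GUN4* spans chr11:9177329-9178565 on the plus strand and shares its last 61 bases with Os11g0267100 on the minus strand. *CHLP* spans chr2:31246225-31248801 on the plus strand and shares 1417 bases, 55.0% of its span, with Os02g0744851 on the minus strand. That gene had 0 or 1 count in every library but FPKM of 0.48 to 1.83, where *CHLP* had 21.0 to 80.8. Whether reads were assigned by strand is not given in the sources used here, so the counts of *HEMA1* are uncertain and are taken up again below with its FPKM values. Whether its overlap affects the counts of *CHLP* was not tested.

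Compared per length, with the FPKM of *HEMA1* taken alone, *CHLP* was the most abundant of the 5 genes in every group. *GUN4* and *HEMA1* were then the least abundant. FPKM, which the authors gave as fragments scaled by gene length and library total, set the levels of different genes on a common scale. In the wild type at EE, mean FPKM was 30.4 ± 2.89 for *CHLP*, 14.98 ± 0.67 for *ALAD*, 12.4 ± 1.73 for *GSA*, 1.56 ± 0.29 for *GUN4* and 1.45 ± 0.36 for *HEMA1* (SD, n = 3 here and in all groups), and the ranges of the last pair overlapped. In *Oslec1-1* at EE, *GSA* stood above *ALAD*, with 47.2 ± 1.43 against 30.2 ± 2.11, below *CHLP* with 75.5 ± 6.0 and above *HEMA1* with 14.4 ± 3.49 and *GUN4* with 7.98 ± 1.10, with no overlap between neighbours. At EE, *GSA* thus stood below *ALAD* in the wild type and above it in *Oslec1-1*. In the wild type at LE, *CHLP* with 23.5 ± 2.57 overlapped *ALAD* with 18.5 ± 2.39, *GSA* followed with 12.7 ± 0.66, and *HEMA1* with 7.78 ± 3.93 overlapped *GUN4* with 5.29 ± 0.39. In *Oslec1-1* at LE, *CHLP* had 46.6 ± 8.83, *GSA* with 35.9 ± 2.99 overlapped *ALAD* with 33.8 ± 1.65, and *HEMA1* with 18.5 ± 1.37 stood above *GUN4* with 7.52 ± 0.31. TPM gave the same order of the 5 genes as FPKM in all 4 groups. This is no separate check, because TPM rescales the FPKM of a library by a common factor.

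At EE, 4 of the 5 genes were higher in *Oslec1-1* than in the wild type at an adjusted *p* under 0.05, beside 30.3% of the 23034 genes tested that were called higher, and 0 were lower, beside 26.7% of all genes tested. The largest change was that of *GUN4*, followed by *GSA*, *CHLP* and *ALAD*, and *HEMA1* did not pass the test on counts. At LE, all 5 genes were higher, beside 25.6% of the 24065 genes tested that were called higher and 21.3% called lower, and *GSA* had the largest change. None of the 5 reached a log2 fold change of 2, the limit of the study, in either stage, while 10.9% of all genes tested did so upward at EE and 8.29% at LE. The median log2 fold change of the 5 genes was 0.68 at EE and 0.77 at LE, and that of all genes tested was 0.03 and 0.02. These are tests of edgeR (quasi-likelihood, 3 against 3 libraries, Benjamini-Hochberg over all genes tested), and the error after a log2 fold change is its standard error. The libraries of *Oslec1-1* lay above all those of the wild type for 4 of the 5 genes at EE and for 5 at LE, as they did for 34.4% and 29.1% of all genes tested.

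**Figure D1:**
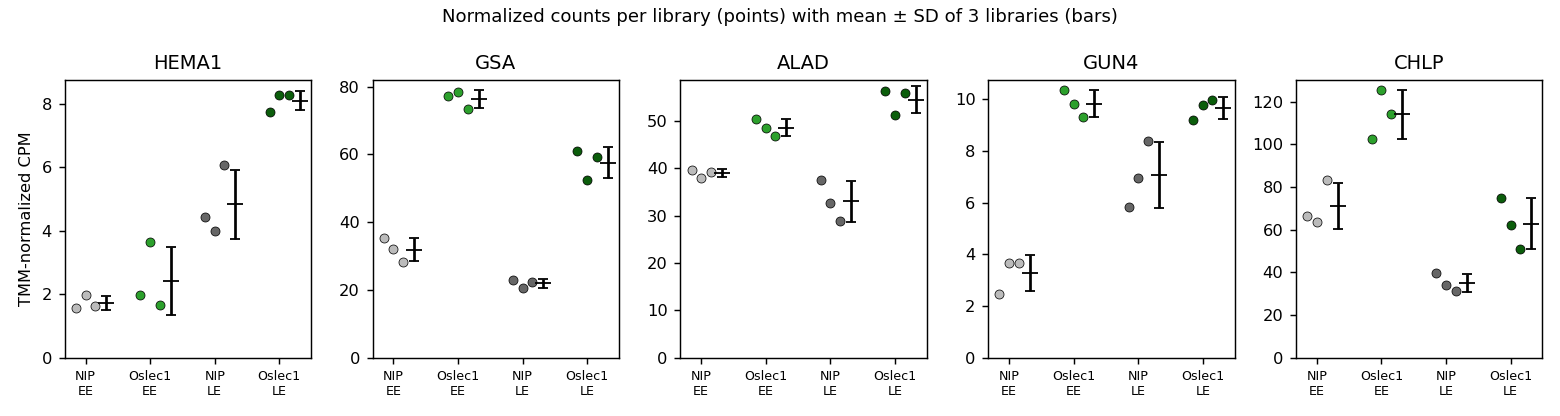
TMM-normalized CPM (vertical axis, from 0, a scale of its own for each gene) of the 5 genes in the 12 libraries, by genotype and stage (horizontal axis), where points are libraries and bars the mean ± SD of 3. The mutant libraries lie above those of the wild type at both stages for *GSA*, *ALAD*, *GUN4* and *CHLP*, and for *HEMA1* only those at LE do.

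*GSA*, whose product forms 5-aminolevulinic acid, had 513, 377 and 347 counts in the wild type at EE and 1851, 1546 and 1633 in *Oslec1-1*. Normalized, these were 35.3, 32.2 and 28.3 CPM against 77.3, 78.5 and 73.5. Every mutant library lay far above every wild type library, and the log2 fold change was 1.26 ± 0.10, or 2.39-fold (edgeR adjusted *p* = 4.6e-06). At LE, the values were 23.1, 20.5 and 22.3 in the wild type and 61.0, 52.6 and 59.2 in *Oslec1-1*, again without overlap. The log2 fold change there was 1.42 ± 0.10, or 2.67-fold (edgeR adjusted *p* = 4.9e-05). The 2 effects differed by 0.13 ± 0.14 on the log2 scale (edgeR interaction, adjusted *p* = 0.49).

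*ALAD*, the next enzyme of the route, was the least changed gene at EE among those that passed the test. It had 39.6, 38.0 and 39.2 normalized CPM in the wild type and 50.5, 48.6 and 46.9 in *Oslec1-1*, a log2 fold change of 0.32 ± 0.09, or 1.25-fold (edgeR adjusted *p* = 0.0099). At LE, the wild type had 37.6, 32.8 and 29.0 and *Oslec1-1* 56.3, 51.4 and 56.0, a log2 fold change of 0.75 ± 0.11, or 1.68-fold (edgeR adjusted *p* = 0.0016). The groups did not overlap at either stage. The effect was larger at LE by 0.40 ± 0.13 on the log2 scale (edgeR interaction, adjusted *p* = 0.036, beside 16.7% of the 24903 genes tested that were called higher in this test). That call was lost when any 1 of 9 of the 12 libraries was left out, where the adjusted *p* was 0.056 to 0.089, and with library size as the only scaling the difference was -0.14.

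*GUN4* was the gene whose difference between the genotypes depended most clearly on the stage. It had 36, 43 and 45 counts in the wild type at EE and 248, 193 and 207 in *Oslec1-1*. Normalized, these were 2.47, 3.67 and 3.67 CPM against 10.4, 9.81 and 9.31, a log2 fold change of 1.59 ± 0.20, or 3.02-fold (edgeR adjusted *p* = 8.9e-05). At LE, the wild type had 5.84, 6.95 and 8.40 and *Oslec1-1* 9.18, 9.79 and 9.98, so that the highest wild type library came close to the lowest mutant one. The log2 fold change at LE was 0.47 ± 0.15, or 1.39-fold (edgeR adjusted *p* = 0.036), and this call was lost in 5 of the 6 fits with 1 library left out, all but the one without the third wild type library, with adjusted *p* of 0.061 to 0.10. The effect was smaller at LE than at EE by -1.15 ± 0.24 on the log2 scale (edgeR interaction, adjusted *p* = 0.0031, beside 16.7% of all genes tested that were called lower), and this call held with each of the 12 libraries left out and in every other alternative.

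The mean of *GUN4* was 3.27 ± 0.69 normalized CPM in the wild type at EE and 7.06 ± 1.28 at LE, without overlap, against 9.83 ± 0.52 and 9.65 ± 0.42 in *Oslec1-1*, with overlap. The wild type libraries of the 2 stages thus lay apart and those of *Oslec1-1* did not. Os11g0267100, whose end *GUN4* overlaps by 61 bases, had a log2 fold change of 1.03 ± 0.24 at EE (edgeR adjusted *p* = 0.0041) and of 0.26 ± 0.14 at LE (edgeR adjusted *p* = 0.18). Both values are smaller than those of *GUN4*, but the pattern over the stages was alike. The effect on Os11g0267100 was smaller at LE by -0.80 ± 0.28 (edgeR interaction, adjusted *p* = 0.042). From EE to LE, it changed by 0.93 ± 0.19 in the wild type (edgeR adjusted *p* = 0.0028) and by 0.13 ± 0.20 in *Oslec1-1* (edgeR adjusted *p* = 0.60). Whether the pair shares reads was not tested.

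*CHLP*, which supplies the phytyl tail, had 966, 745 and 1020 counts in the wild type at EE and 2457, 2471 and 2537 in *Oslec1-1*. Its normalized values were 66.4, 63.6 and 83.2 CPM against 103, 126 and 114, a log2 fold change of 0.68 ± 0.12, or 1.604-fold (edgeR adjusted *p* = 0.00097). At LE, they were 39.5, 34.2 and 31.2 against 75.0, 62.1 and 51.1, a log2 fold change of 0.87 ± 0.16, or 1.83-fold (edgeR adjusted *p* = 0.0040). The groups did not overlap at either stage, although the mutant libraries at LE were widely spread. The effects at the 2 stages differed by 0.16 ± 0.21 on the log2 scale (edgeR interaction, adjusted *p* = 0.59).

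*HEMA1*, the first enzyme, had few counts, with 23, 23 and 20 in the wild type at EE and 47, 72 and 37 in *Oslec1-1*. Normalized, these were 1.58, 1.96 and 1.63 CPM against 1.96, 3.66 and 1.66, and the groups overlapped, with only the second mutant library well above the wild type. The log2 fold change was 0.48 ± 0.35 (edgeR adjusted *p* = 0.27), and without that library it was 0.07. At LE, the wild type had 4.43, 3.995 and 6.08 and *Oslec1-1* 7.74, 8.29 and 8.26, without overlap, a log2 fold change of 0.77 ± 0.17, or 1.70-fold (edgeR adjusted *p* = 0.0097). The 2 effects differed by 0.26 ± 0.39 on the log2 scale (edgeR interaction, adjusted *p* = 0.65).

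**Figure D2:**
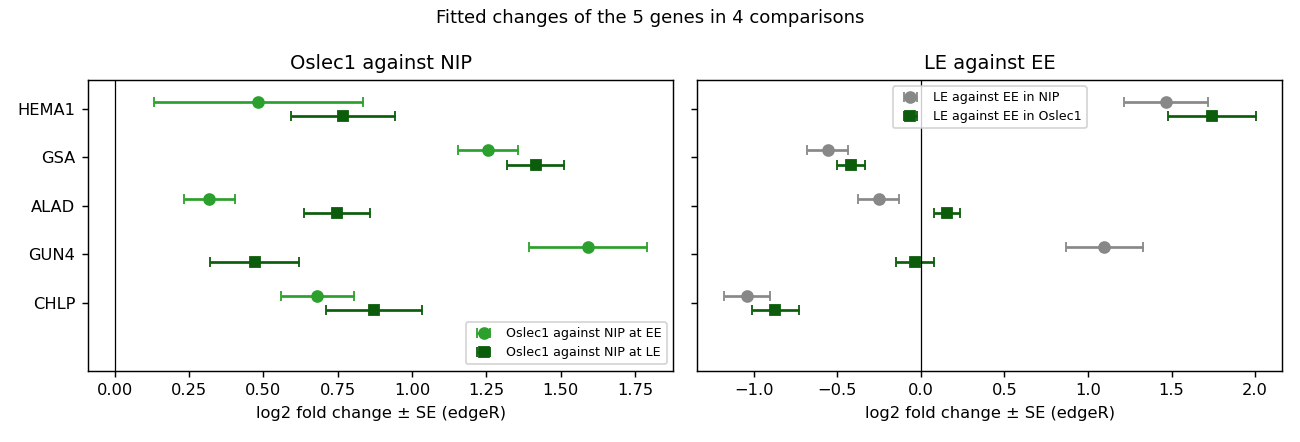
Log2 fold changes from edgeR (horizontal axis, points, with the standard error as bars) of the 5 genes (vertical axis) between the genotypes at EE and LE (left) and between the stages in each genotype (right). All 10 genotype values lie above 0, and *GUN4* is the only gene with a smaller value at LE than at EE, 0.47 against 1.59.

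The scaling sets the size of these changes at EE. With library size only, the log2 fold changes at EE were 1.15 for *HEMA1*, 1.93 for *GSA*, 1.00 for *ALAD*, 2.27 for *GUN4* and 1.36 for *CHLP*. Relative to the shift of all genes by 0.68, they were 0.47, 1.25, 0.32, 1.597 and 0.69, close to the TMM values. That closeness is no separate check, since both fits use the same counts and differ mainly in a shift common to all genes. With library size only, *HEMA1* passed the test and *GUN4* passed the limit of the study (edgeR adjusted *p* = 0.011 for *HEMA1*).

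Many IDs taken as markers of endosperm, embryo or green leaf cells differed between the genotypes as well. Lists of marker genes were made from general knowledge of rice genes, with no annotation that pairs their IDs with names, so they are given as sums and counts of calls, with no ID named. The normalized counts of 10 endosperm IDs summed to between 3233 and 4098 CPM in the wild type at EE and between 26618 and 28456 CPM in *Oslec1-1*, and all 10 were called higher there, where 30.3% of all genes tested were. At LE, the wild type had sums of 158 to 178 and *Oslec1-1* sums of 175 to 562, which overlapped. Of the 8 endosperm IDs tested at LE, 6 were called higher and 2 lower, with a median log2 fold change of 2.28, against 25.6% and 21.3% of all genes. The list of embryo IDs is given without the 1 taken for *OsLEC1*, which was left out after the data were seen. That ID had too few counts to be tested between the genotypes at either stage. Adding it leaves the sums below unchanged as rounded here. The sums of the 4 others lay between 16452 and 17877 for wild type libraries at EE and between 286 and 357 for those of *Oslec1-1*. At LE they lay at 661 to 717 and 220 to 288, and all 4 were called lower at both stages, against 26.7% of all genes at EE and 21.3% at LE. The sums of 5 IDs of green leaf cells were 8.04 to 9.14 against 178 to 196 at EE and 8.70 to 9.99 against 198 to 234 at LE. At EE, 4 of the 5 were called higher in *Oslec1-1* and 1 lower, with -1.06 on the log2 scale, and at LE 4 were called higher and 0 lower, with the same shares of all genes as above. No ID of the 3 lists was at 0 in every library. The part of these cell types in the levels of the 5 genes was not tested, and in RNA of whole embryos fewer cells of a type and less RNA per cell cannot be told apart.

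A further 22 IDs were listed for tetrapyrrole and phytyl synthesis, also from general knowledge. At EE, 14 were higher and 2 lower in *Oslec1-1*, with a median log2 fold change of 0.59, and 4 of the higher ones passed the limit of the study. Of all genes tested at EE, 30.3% were higher, 26.7% lower and 10.9% higher past the limit. At LE, 15 were higher and 0 lower, with a median of 0.70, and 6 passed the limit, against 25.6% higher, 21.3% lower and 8.29% higher past the limit among all genes. The widest change of the list was 8.79 at EE and 5.74 at LE, so the 5 genes described here, with at most 1.59, lay well inside its range. In sum, these 22 IDs held 473 to 506 normalized CPM in the wild type at EE and 807 to 913 in *Oslec1-1*, and 437 to 448 and 722 to 787 at LE. None of the 22 is named, because no annotation used here pairs them with an enzyme.

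From EE to LE, the genes of the wild type went different ways: *HEMA1* and *GUN4* were called higher, *GSA* and *CHLP* lower, and *ALAD* did not pass the test. In this comparison, 29.3% of the 22129 genes tested were called higher and 29.1% lower. *HEMA1* changed by 1.47 ± 0.25 on the log2 scale, or 2.76-fold (edgeR adjusted *p* = 0.0011), and *GUN4* by 1.10 ± 0.23, or 2.14-fold (edgeR adjusted *p* = 0.0032). *CHLP* changed by -1.04 ± 0.14 (edgeR adjusted *p* = 0.00028) and *GSA* by -0.56 ± 0.12 (edgeR adjusted *p* = 0.0038), with no overlap of the libraries. *ALAD* had -0.25 ± 0.12 (edgeR adjusted *p* = 0.10), although its libraries did not overlap either, and without the first wild type library at LE it passed with -0.36 (edgeR adjusted *p* = 0.031). It also passed in the joint fit to 12 libraries, with -0.24 (edgeR adjusted *p* = 0.0495). With library size only, *GSA* had 0.01 and *ALAD* 0.31 (edgeR adjusted *p* = 0.041), so their direction rests on the scaling, whereas *CHLP* kept its direction with -0.47 and *HEMA1* and *GUN4* had 2.04 and 1.67.

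In *Oslec1-1*, *CHLP* and *GSA* were again lower at LE and *HEMA1* higher, while *ALAD* and *GUN4* did not pass the test. Of the 24491 genes tested here, 30% were called higher and 29.1% lower. *HEMA1* changed by 1.74 ± 0.26, or 3.34-fold (edgeR adjusted *p* = 0.00060), from 1.66 to 3.66 normalized CPM at EE to 7.74 to 8.29 at LE. *CHLP* changed by -0.87 ± 0.14 (edgeR adjusted *p* = 0.00085) and *GSA* by -0.42 ± 0.08 (edgeR adjusted *p* = 0.0027). *ALAD* had 0.16 ± 0.08 (edgeR adjusted *p* = 0.12) and *GUN4* -0.04 ± 0.11 (edgeR adjusted *p* = 0.79). With library size only, they were 1.76, -0.86, -0.40, 0.17 and -0.02 in the same order of genes, so the scaling did not change a direction here. Without overlap between the stages, 2 of the 5 genes were higher and 3 lower at LE in the wild type, beside 34.3% and 31.9% of all genes tested, and 2 were higher (*HEMA1* and *ALAD*) and 2 lower in *Oslec1-1*, beside 34.3% and 32.5%. The 2 stage comparisons share no library, but each shares its groups with the genotype comparisons above.

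*HEMA1* gave different results by counts and by FPKM. Its FPKM were 1.64, 1.67 and 1.03 in the wild type at EE and 10.9, 14.4 and 17.8 in *Oslec1-1*, so that the mutant library with the fewest counts, 37, had the highest FPKM. At LE, they were 3.63, 8.28 and 11.4 against 17.4, 18.2 and 20.0. The groups did not overlap at either stage. The ratio of CPM by library total, without TMM factors, to FPKM, in kilobases, is the same in every library for a gene of fixed length whose reads enter both measures alike, and it lay between 1.79 and 1.88 for *GSA* and between 1.83 and 1.90 for *ALAD*. For *CHLP* it lay between 1.65 and 1.75 at EE and between 1.54 and 1.57 at LE. From EE to LE in the wild type, *CHLP* changed by -0.90 ± 0.13 on log2(FPKM + 1) after division by TMM factors, against -1.04 by counts. The ratio for *GUN4* lay between 1.23 and 1.89, but that for *HEMA1* between 0.11 and 1.27. The 2 measures of *HEMA1* are therefore not the same quantity on other scales.

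Os10g0502450, the gene inside *HEMA1* on the other strand, had 0 counts in all 12 libraries but FPKM of 3.71, 3.96 and 5.10 in the wild type at EE and 13.7, 17.2 and 16.2 in *Oslec1-1*, and of 14.8, 12.8 and 18.8 against 23.5, 30.7 and 32.6 at LE. *HEMA1* held between 16.8% and 52.4% of the summed FPKM of the pair. As the strand of the reads is not given in the sources used here, the sum is given as the value of the locus. It was 5.35, 5.64 and 6.14 in the wild type at EE against 24.6, 31.6 and 34.1 in *Oslec1-1*, and 18.5, 21.1 and 30.2 against 40.9, 48.9 and 52.6 at LE, without overlap at either stage.

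By FPKM, *HEMA1* was higher in *Oslec1-1* at EE. On the log2(FPKM + 1) scale, which understates changes of low genes, the log2 fold change at EE was 2.63 ± 0.19 (limma adjusted *p* = 4.8e-06), and with the FPKM of the pair summed it was 2.20 ± 0.13 (limma adjusted *p* = 1.5e-06). In the first fit, 64.1% of all genes tested were called higher at EE. With the FPKM divided by the TMM factors, it was 2.11 ± 0.19 for *HEMA1* alone (limma adjusted *p* = 3.8e-05) and 1.58 ± 0.14 for the sum (limma adjusted *p* = 3.9e-05). At LE, the change was 1.27 ± 0.34 (limma adjusted *p* = 0.022, beside 29% of all genes called higher) and 1.02 ± 0.19 for the sum (limma adjusted *p* = 0.0053). The effect was smaller at LE in these fits, by -1.37 ± 0.42 for *HEMA1* (limma adjusted *p* = 0.016, beside 44.3% of all genes called lower) and by -1.18 ± 0.24 for the sum (limma adjusted *p* = 0.0017), whereas the counts gave 0.26 ± 0.39 in the other direction. After division by the TMM factors, the sum still differed by -0.70 ± 0.25 (limma adjusted *p* = 0.045), and *HEMA1* alone by -1.02 ± 0.41 (limma adjusted *p* = 0.072). In *Oslec1-1*, the change from EE to LE was 0.37 ± 0.16 by FPKM (limma adjusted *p* = 0.087), against 1.74 by counts.

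**Figure D3:**
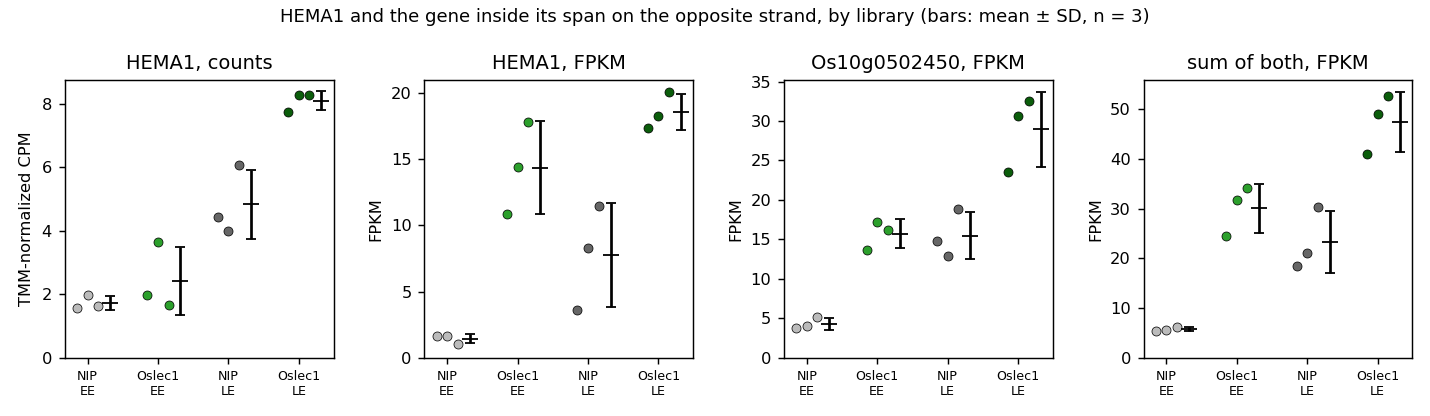
*HEMA1* as TMM-normalized CPM, *HEMA1* as FPKM, Os10g0502450 as FPKM and the sum of both as FPKM (vertical axes, from 0), in the 12 libraries by genotype and stage (horizontal axis), where points are libraries and bars the mean ± SD of 3. At EE, the mutant libraries overlap the wild type in counts but lie between 10.9 and 17.8 in FPKM, above the wild type at 1.03 to 1.67.

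Ratios of counts between 2 of the genes within a library need no scaling between libraries. Of the 10 ratios among the 5 genes, 5 did not overlap between the genotypes at EE and 5 at LE, and 8 in the wild type and all 10 in *Oslec1-1* did not overlap between the stages. Over the ratios of every other gene tested to each of the 5, 72% and 73.3% did not overlap between the genotypes at EE and LE, and 74.5% and 72.3% between the stages of the wild type and of *Oslec1-1*. With 3 against 3 libraries, an exact permutation test cannot give a *p* below 0.10, so no test was made. The ratio of *GSA* to *ALAD*, consecutive enzymes of the route, was 0.82 ± 0.09 in the wild type at EE and 1.57 ± 0.04 in *Oslec1-1*. At LE, it was 0.67 ± 0.09 against 1.05 ± 0.03, again without overlap. The ratio of *GSA* to *CHLP* was also higher in *Oslec1-1*, with 0.46 ± 0.10 against 0.67 ± 0.07 at EE and 0.63 ± 0.07 against 0.94 ± 0.19 at LE.

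The ratios with *GUN4* varied with genotype and stage. *ALAD* had 12.4 ± 3.19 times the counts of *GUN4* in the wild type at EE and between 4.87 and 5.67 times in the mean of the other groups. The ratio of *GUN4* to *CHLP* was 0.046 ± 0.010 in the wild type at EE and 0.087 ± 0.012 in *Oslec1-1* without overlap, and 0.21 ± 0.06 and 0.16 ± 0.04 at LE with overlap. This ratio was thus higher at LE than at EE in both genotypes, which holds under any scaling of the libraries. *HEMA1* to *CHLP* by counts was also higher at LE, with 0.025 ± 0.006 at EE and 0.14 ± 0.05 at LE in the wild type and 0.021 ± 0.007 and 0.13 ± 0.03 in *Oslec1-1*, within the limits of the *HEMA1* counts.

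**Figure D4:**
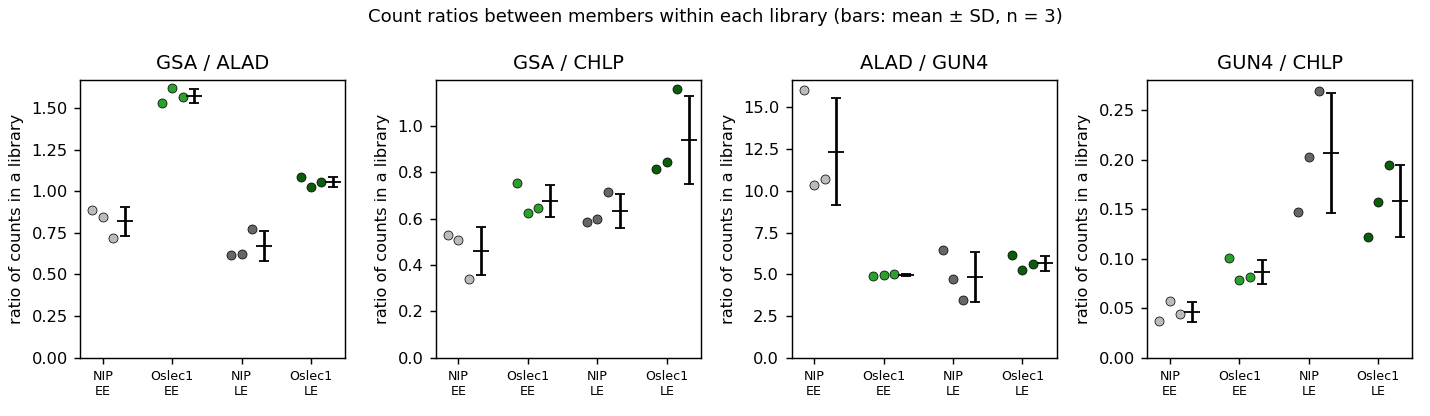
Ratio of counts of 2 of the genes in each library (vertical axes, from 0) by genotype and stage (horizontal axis) for *GSA* to *ALAD*, *GSA* to *CHLP*, *ALAD* to *GUN4* and *GUN4* to *CHLP*, where points are libraries and bars the mean ± SD of 3. The mutant libraries lie above the wild type at both stages for *GSA* to *ALAD*, 1.57 against 0.82 at EE and 1.05 against 0.67 at LE.

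Over the 12 libraries, the 5 genes did not share a single pattern. Pearson coefficients of log2 normalized counts ran from -0.47 for *HEMA1* with *CHLP* to 0.88 for *GSA* with *ALAD*, and *GSA* with *CHLP* had 0.81. On log2(FPKM + 1), the same 10 coefficients ran from 0.53 to 0.94, with the highest for *HEMA1* with *GUN4*, so that the place of *HEMA1* among the 5 depends on the measure. These are descriptions, since the 12 libraries are 4 groups of 3 that share genotype, stage and library code.

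Of the genes with a mean of 1 CPM or more, 21911 in number, many followed each gene more closely than the other members did. For *GSA*, the 3 most alike were Os05g0161500, Os12g0625000 and Os01g0723400 with coefficients of 0.99, and *ALAD* came at rank 883. For *ALAD*, they were Os03g0800200, Os10g0571600 and Os05g0103200 with 0.96, and *GSA* came at rank 270. For *GUN4*, they were Os04g0405900, Os02g0532300 and Os06g0547400 with 0.98, and for *CHLP* Os01g0191500, Os04g0689000 and Os01g0543100 with 0.98. For *HEMA1* by counts, they were Os01g0865700, Os08g0448100 and Os02g0627100 with 0.97, which fell to between 0.66 and 0.68 on FPKM. With FPKM in place of counts, 1 of the 15 genes was again among the 3 most alike. The files pair none of these IDs with a name.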

How the data were processed

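Reads had been cleaned by the authors with Trimmomatic 0.36 and aligned to IRGSP-1.0 with HISAT2 2.1.0, and the authors deposited whole-number counts per gene without normalization. The counting program is not given in the sources used here. StringTie 1.3.4d gave FPKM, TPM and coverage, which the authors deposited for each gene in each library. Counts (16113922 to 27213238 per library) entered all tests by edgeR and FPKM those by limma. TPM served only to repeat the order of levels, and coverage was not used. All entries of the count table carry a gene ID. Groups were taken from the sample labels, and replicates of a group differed by more than sampling noise (chi-square per gene from 5.18 to 28.2).

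The main test was the quasi-likelihood test of edgeR 4.0.16 in R 4.3.3, with filterByExpr and TMM, on the 6 libraries of a comparison or, for the interaction of genotype and stage, on all 12. Calls were made at an adjusted *p* (Benjamini-Hochberg, all genes tested) under 0.05. The scaling was also done with RLE factors, with library size alone and with TMM after removal of the 50 most abundant genes. The filter was also left out, or set to 10 counts or more throughout. Other alternatives were DESeq2 1.42.0, a block for the replicate number, a joint fit to 12 libraries, each library left out in turn, and limma 3.58.1 on log2(FPKM + 1) or log2(FPKM + 0.1), on genes that reached an FPKM of 0.5 in 3 libraries and on all genes. Summing *HEMA1* with Os10g0502450 and dividing FPKM by TMM factors were added after the data were seen. All 5 genes are named in each comparison, with the 3 genes of highest Pearson coefficient over log2 CPM (prior count 2) to each of them. The 5 genes and the lists were chosen with earlier results of these data known. The scripts were tested on simulated data. Python 3.11.15, numpy 2.4.6, pandas 2.3.3 and matplotlib 3.10.9 were used for tables and figures.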

Additional observations from a re-analysis of the deposited data

Results flagged for a closer look

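The effect of *Oslec1-1* on *GUN4* differed between the stages, with a difference (LE minus EE) of -1.15 on the log2 scale by the interaction term of edgeR (adjusted *p* = 0.0031). That on *ALAD* differed by 0.40 in the same test (edgeR adjusted *p* = 0.036). The *ALAD* call was lost in 9 of the 12 fits with 1 library left out, and with library size only the difference was -0.14. Os10g0502450 had 0 counts in every library, so that no test on counts used it, but its mean FPKM was 3.69 times as high in *Oslec1-1* at EE as in the wild type. No group has more than 3 libraries, so single libraries were not tested for standing apart.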

How the results depend on the processing

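The direction of all 5 genes between the genotypes held at EE and LE in every alternative, and the calls of *GSA*, *ALAD*, *GUN4* and *CHLP* at EE and of *GSA*, *ALAD* and *CHLP* at LE held as well. *HEMA1* at EE passed with library size only and in all limma fits on FPKM (log2 fold changes of 1.15 to 3.22), and its call at LE was lost with limma without a filter (limma adjusted *p* = 0.077). With library size only, 14986 genes were called higher and 2061 lower at EE, against 6979 and 6150, and limma called 15632, 15499 and 16011 higher and 2194, 2170 and 2068 lower with 1 added, 0.1 added and no filter. Between the stages of the wild type, library size only gave 12370 and 3177 against 6491 and 6434, and limma 13148, 13054 and 12728 higher and 3312, 3291 and 3210 lower. In the interaction, library size only gave 1881 and 10847 against 4155 and 4166, and limma 2482, 2183 and 2508 higher and 11737, 11608 and 11528 lower. Genes called lower in *Oslec1-1* than in the wild type at LE numbered 5135, and 3367 to 5601 with 1 library left out, the lowest being without the second mutant library.

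Of the 5 genes, 0 passed the fold limit at EE, but 1 (*GUN4*) did with library size only, 2 with limma and 0.1 added, and 1 in the other limma fits on FPKM, except 0 for the TMM-divided fit with *HEMA1* summed with Os10g0502450. Of all genes tested, 10.9% passed it upward in the main fit, and 1616 genes did by limma with 1 added. Between the stages of the wild type, 0 of the 5 passed it, but 1 did with library size only and with limma and 0.1 added. With library size only, 2380 of all genes passed it upward. In *Oslec1-1*, 0 to 1 of the 5 passed it with 1 library left out, where *HEMA1* had 2.14 without the second library at EE. Among all genes, 1456 to 1764 passed it upward in these fits. Of the 5 genes, 2 were called lower at LE than at EE in the wild type. This fell to 1 with library size only and with limma and 1 or 0.1 added, and to 0 by limma without a filter. Of all genes tested, 29.1% were called lower in the main fit. These alternatives called 3177, 3312, 3291 and 3210 of all genes lower in turn. *HEMA1*, the 1 gene called higher between the stages of *Oslec1-1*, was not called by limma, which left 0, unless it was summed with Os10g0502450. In the interaction, the call of *ALAD* was lost, leaving 0 genes called higher, with library size only, without a filter, and by limma without division by TMM factors, and 0 to 1 were called higher with 1 library left out. Of the 5 genes, 1 was called lower in the interaction, but 2 with library size only and for the TMM-divided sum and 3 by limma on FPKM. Of all genes, 16.7% were called lower in the main fit. Library size only called 10847 of all genes lower, and limma with 1 added called 44.3% lower.

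Directions changed as follows. Between the stages of the wild type, *GSA* and *ALAD* had 0.0063 and 0.31 with library size only, 0.046 and 0.28 by limma with 1 added, with or without a filter, and 0.050 and 0.30 with 0.1 added. *GUN4* between the stages of *Oslec1-1* had -0.080 to 0.00036 with 1 library left out. In the interaction, *HEMA1*, *GSA*, *ALAD* and *CHLP* had -0.28, -0.41, -0.14 and -0.39 with library size only, -1.37, -0.44, -0.12 and -0.34 by limma with 1 added, with or without a filter, and -1.84, -0.45, -0.13 and -0.34 with 0.1 added. For *HEMA1*, the sum gave -1.18, division by TMM factors -1.02 and both -0.70. By limma after division by TMM factors, *GSA* and *ALAD* had -0.48 and -0.25 between the stages of the wild type. In that setting, *GSA*, *ALAD* and *CHLP* also kept the direction of the main fit in the interaction. Library size only shifts all genes alike, and the cause of the other differences was not tested. Likeness shared 1 of 15 genes with the FPKM.

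Whether replicate numbers pair the libraries cannot be settled from 3 libraries in a group. Deviations of same-numbered libraries correlated by 0.07, -0.02 and -0.05 at EE and by 0.37, -0.02 and 0.19 at LE. Those of different-numbered libraries correlated by -0.05 to 0.07 at EE and by -0.41 to 0.29 at LE. With the replicate number as a block, *GSA* had 1.26 at EE and 1.41 at LE, and no call of the 5 genes changed in any comparison. *CHLP* at LE had 0.86 ± 0.08 with the block and 0.87 ± 0.16 without it. *HEMA1* had 20 to 23 counts in the wild type at EE, which limits its precision there. Between the stages of the wild type, the call of *ALAD* was gained in the joint fit to 12 libraries.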

Other observations

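The absence of counts seen for Os10g0502450 was shared by other genes that lie within a gene on the opposite strand. Of 386 such genes with an FPKM of at least 1 in every library, 127 (32.9%) had 0 counts in every library, against 46 of 3485 (1.32%) among genes that overlap an opposite-strand gene in another way and 11 of 13065 (0.084%) among genes without such an overlap. How the counting program treated these reads was not tested.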
